A study of Rattus norvegicus with 6 samples.

Results

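Chrna9, Chrna10, Kcnn2 and Rapsn are the postsynaptic genes of the efferent cholinergic synapse of outer hair cells, and they were read here as 4 genes of the 35790 listed in the deposited table. Their rows were taken by gene symbol, and where a symbol repeats the row with the most reads was taken. The members were chosen with earlier results of these data known. RNA sequencing was done on 3 libraries of basal-turn and 3 libraries of apical-turn outer hair cells, each made from 30 cells picked under the microscope after 10 min in 1 mg/ml collagenase IV. All rats were Sprague-Dawley and wild type, aged postnatal day 9, which is before the onset of hearing, and the middle turn is not among the libraries. Both groups were dissociated in the same way, and there was no treated or mutant group. No label tells if separate animals gave the libraries of a turn. The p-values therefore describe the spread among these 6 libraries alone, and part of it may be technical.

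Outer hair cells amplify sound-driven vibration, and their main innervation from the brainstem is efferent. Medial olivocochlear fibres release acetylcholine onto a receptor built from the products of Chrna9 and Chrna10, calcium enters through it, and the calcium opens SK channels made from Kcnn2, which hyperpolarise the cell. Rapsyn, the product of Rapsn, clusters nicotinic receptors beneath the nerve ending at the neuromuscular junction of mice. The question addressed was whether cells of the basal turn, tuned to high frequencies, differ from cells of the apical turn, tuned to low frequencies, in these transcripts. Each turn was sampled at postnatal day 9 alone, so tuning cannot be told apart from any other difference between the turns.

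Total gene counts were 16511675 to 20301499 in basal and 18617323 to 23140976 in apical libraries, and 3 counts corresponded to 0.148 to 0.182 CPM (counts per 1e6 counts in the library) in basal and 0.130 to 0.161 CPM in apical libraries. A count of 0 is read here as allowing up to 3 counts, and such limits cover counting error only. The labelled cell type was present in every library, since hair cell genes took 0.244% to 1.57% of counts in basal and 0.947% to 1.55% in apical libraries. Outer hair cell genes took 0.833% to 6.37% of counts in basal and 1.95% to 3.70% in apical libraries. The libraries of the basal turn stood apart in markers of other cells: 14 of 14 tested Schwann cell markers and 10 of 10 tested macrophage markers were at higher estimates in basal libraries. The Schwann cell markers took 0.338%, 3.52% and 2.37% of counts in basal replicates 1, 2 and 3, against 0.0248% to 0.0394% in apical libraries, and no listed Schwann cell marker was at 0 in all libraries. Macrophage markers took 0.0220% to 0.195% of counts in basal and 0.0039% to 0.0077% in apical libraries, again with none at 0 in all libraries. Fibrocyte and bone markers, 10 of 11 at higher estimates in basal libraries, took 0.219%, 1.71% and 2.98% of counts in basal replicates 1, 2 and 3, against 0.315% to 0.406% in apical libraries. Red blood cell markers, 5 of 5 tested at higher estimates, took 0.246% to 1.14% in basal and 0.0178% to 0.153% in apical libraries. Spiral ganglion neuron markers, 7 of 10 tested at higher estimates, took 0.0725% to 0.0927% in basal and 0.0447% to 0.0699% in apical libraries. That sum is weighted to abundant genes: in basal replicate 1 Gata3, Stmn2 and Snap25 had 6423, 3139 and 3025 reads. There Nefl, Gap43 and Tubb3 had 3, 1 and 0 reads, against 2078, 1305 and 410 in basal replicate 2 and 1590, 969 and 797 in basal replicate 3. In apical replicates 1, 2 and 3 Nefl had 1763, 279 and 333 reads. None of the listed fibrocyte and bone, red blood cell or neuron markers was at 0 in all libraries. Supporting cell markers went the other way, at 0.0756% to 0.181% in basal and 0.344% to 0.938% in apical libraries. Of these markers 13 of 14 were at lower estimates in basal libraries, and none was at 0 in all libraries. Inner hair cell markers took 0.00042% to 0.0076% of counts in basal and 0.0032% to 0.0058% in apical libraries. Of 4 tested, 3 were at lower and 1 at higher estimates in basal libraries. Their log2 fold changes ran from -10.7 to 1.15, with a median of -1.88. DESeq2 called 1 of the 4, against 2.69% of all genes tested. Groups without overlap and with basal libraries lower were found for 2 of the 4 and for 10.4% of all genes tested.

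The receptor subunit genes were lower in all 3 basal libraries than in any apical library, whereas Kcnn2 and Rapsn overlapped between the turns. In edgeR's quasi-likelihood test, adjusted over 13507 genes, none of the 4 passed an adjusted p of 0.05. The same test called 0 genes in all (0.0%), so the members' count equals the background. At an unadjusted p of 0.05 the test had 811 genes (6.0%). Of these 524 were lower in basal libraries (3.88%), among them Chrna9 and Chrna10, and 287 were higher (2.12%), with no member among them. DESeq2 called 363 genes (2.69%), 204 of them lower in basal libraries (1.51%), and Chrna9 was the member among them. Groups that did not overlap, with basal libraries lower, were found for Chrna9 and Chrna10 and for 10.4% of all genes tested. Groups without overlap and with basal libraries higher were found for no member and for 5.4% of all genes tested.

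Chrna9 (ENSRNOG00000002484) encodes a ligand-binding receptor subunit and is listed on the minus strand of chromosome 14, from 43883458 to 43890171, on a build that the sources used here do not name. It had 2065, 1453 and 1205 reads in basal replicates 1, 2 and 3, against 14124, 9498 and 5270 reads in apical replicates 1, 2 and 3. These were 58.1, 45.7 and 30.8 FPKM (the read count scaled to gene length and library total) in basal and 321, 265 and 118 FPKM in apical libraries. The highest basal library lay below the lowest apical one, and the spread was wider among apical libraries. Chrna9 averaged 86.4 ± 26.3 CPM in basal and 452 ± 202 CPM in apical libraries (SD, n = 3 each). The log2 fold change of basal over apical libraries was -2.31 (SE 0.51; adjusted p = 0.438 by edgeR), which did not pass. It passed by DESeq2 (log2 fold change -2.21, adjusted p = 0.00535), while the authors' deposited table lists a log2 fold change of -2.21 with an adjusted p of 0.223. In bulk libraries such as these, fewer cells of a type and less RNA per cell cannot be told apart.

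Chrna10 (ENSRNOG00000020293; chromosome 1, minus strand, 167206722 to 167210919) encodes the partner subunit, and it was the most abundant of the 4 genes per length. It had 12590, 8341 and 4410 reads in basal replicates 1, 2 and 3, against 39157, 54576 and 21312 reads in apical replicates 1, 2 and 3. In FPKM these were 314, 233 and 100.1 in basal and 790, 1351 and 424 in apical libraries. The groups again did not overlap, and replicate 3 held the lowest value of each turn. Ranked by FPKM among all 35790 genes, Chrna10 stood at places 420, 595 and 1329 in basal replicates 1, 2 and 3 and at places 112, 64 and 325 in apical replicates 1, 2 and 3. Its mean level was 468 ± 235 CPM in basal and 1855 ± 1013 CPM in apical libraries (SD, n = 3 each). Basal over apical, the log2 fold change came to -1.90 (SE 0.61, adjusted p = 0.451 by edgeR), and it did not pass by DESeq2 either (adjusted p = 0.118). The authors' deposited table lists -1.82 with an adjusted p of 0.799.

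Kcnn2 (ENSRNOG00000016675; chromosome 18, plus strand, 39335377 to 39479257) encodes the SK channel that the entering calcium opens. It had 1508, 71 and 393 reads in basal replicates 1, 2 and 3, against 2104, 744 and 559 reads in apical replicates 1, 2 and 3. In FPKM these were 46.7, 2.46 and 11.1 in basal and 52.6, 22.8 and 13.8 in apical libraries. Basal replicate 1 lay above 2 of the apical libraries and basal replicate 2 far below every other library, so the turns overlapped. Kcnn2 averaged 35.1 ± 41.0 CPM in basal and 52.1 ± 35.5 CPM in apical libraries (SD, n = 3 each), and its log2 fold change of -0.41 (SE 1.09) did not pass by edgeR (adjusted p = 1.00). The sign turned without basal replicate 2 (0.14) or apical replicate 1 (0.29), and the value was -2.09 without basal replicate 1. Fits on log values gave lower estimates, -1.21 by limma-voom, -1.64 with sample weights, -1.08 on log2(FPKM + 1) and -1.22 on log2(FPKM + 0.1), none of which passed. A further row with the symbol Kcnn2, on the same strand from 39172028 to 39209678, had 0, 0 and 3 reads in basal replicates 1, 2 and 3 and 0 in each apical library.

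Rapsn (ENSRNOG00000011208; chromosome 3, plus strand, 79860179 to 79869524) was detected irregularly. It had 71, 0 and 54 reads in basal replicates 1, 2 and 3, against 1, 206 and 2 reads in apical replicates 1, 2 and 3. In FPKM these were 2.49, 0 and 1.72 in basal and 0.0284, 7.17 and 0.0560 in apical libraries. One library of the apical turn thus held nearly all apical reads, and a count of 0 in basal replicate 2 allows up to 0.182 CPM. The log2 fold change of -0.66 (SE 2.60) did not pass by edgeR (adjusted p = 1.00), and without apical replicate 2 it was 5.06. A difference between the turns was not detectable for Rapsn at this spread between libraries.

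**Figure D1:**
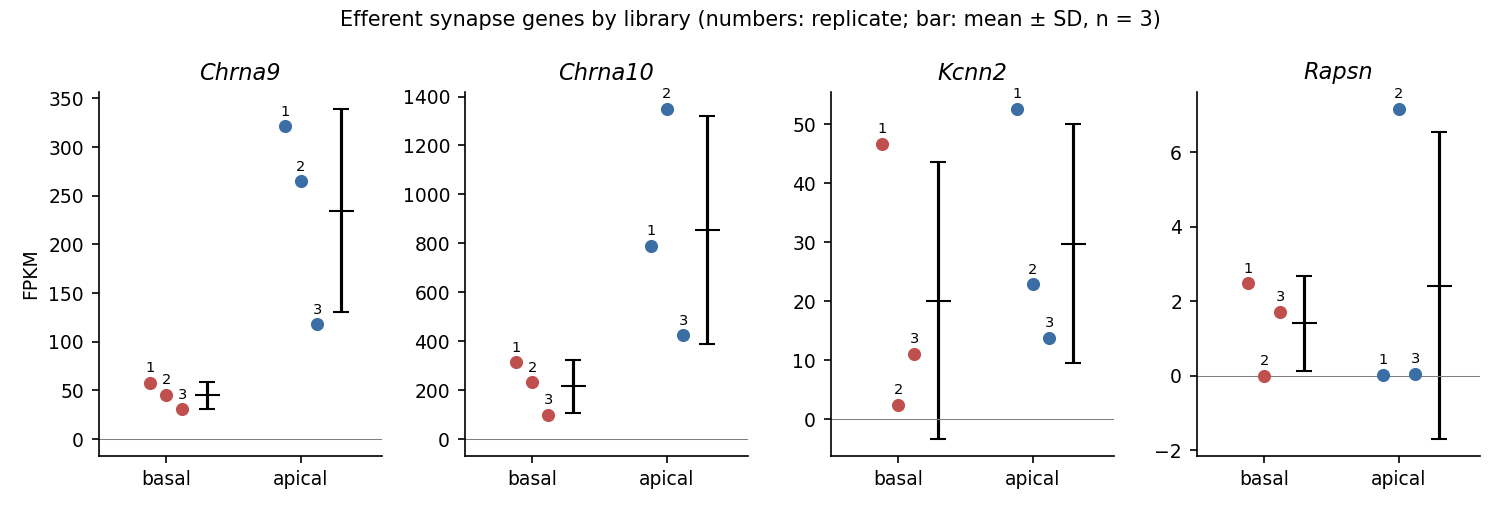
FPKM of Chrna9, Chrna10, Kcnn2 and Rapsn in basal (red) and apical (blue) libraries, with replicate numbers beside the points and mean ± SD (n = 3) as bars; each panel has its own linear axis, on which an SD bar can reach below 0. Chrna9 spans 30.8 to 58.1 in basal and 118 to 321 in apical libraries with no overlap, whereas Kcnn2 and Rapsn overlap.

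In all 6 libraries the order of levels per length was Chrna10, Chrna9, Kcnn2 and Rapsn. Chrna10 and Chrna9 were separate within each turn, since the lowest Chrna10 value (100.1 FPKM in basal and 424 FPKM in apical libraries) exceeded the highest Chrna9 value (58.1 FPKM in basal and 321 FPKM in apical libraries). Chrna9 and Kcnn2 overlapped in basal libraries, where Kcnn2 reached 46.7 FPKM and Chrna9 came down to 30.8 FPKM. In apical libraries they did not overlap, the highest Kcnn2 value being 52.6 FPKM.

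Because both subunits enter the same receptor, their transcripts were also set against each other within each library. Chrna10 exceeded Chrna9 by 5.41-fold, 5.09-fold and 3.25-fold in basal replicates 1, 2 and 3, and by 2.46-fold, 5.10-fold and 3.59-fold in apical replicates 1, 2 and 3, on the FPKM scale. The ranges overlapped. The log2 ratio of Chrna9 over Chrna10 averaged -2.16 ± 0.40 in basal and -1.83 ± 0.53 in apical libraries (SD, n = 3 each), a difference of -0.33 with a two-sided exact permutation p of 0.6. The smallest p that 3 against 3 libraries allow is 0.1.

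Across the 6 libraries the log2 CPM of Chrna9 and Chrna10 had a Pearson's r of 0.94, against 0.58 for Chrna9 with Kcnn2, 0.51 for Chrna10 with Kcnn2 and -0.01 for Chrna9 with Rapsn. These values describe points that share the split by turn and the same libraries. To show the sequences upstream of the subunit genes whose transcripts varied together, the 250 bases before the RefSeq transcript start in build GRCr8 are printed 5′ to 3′ in the direction of the gene, with each match to CANNTG in capitals. CANNTG is the E-box, a letter pattern recognised by basic helix-loop-helix factors such as Atoh1, and it reads the same on both strands. For Chrna10 the RefSeq gene record extends upstream of this start, so its window lies inside the gene record. The window of Chrna9 is chr14:42595670-42595919 and that of Chrna10 is chr1:165903459-165903708, both on the minus strand. The deposited coordinates given above may be on another build.
Chrna9: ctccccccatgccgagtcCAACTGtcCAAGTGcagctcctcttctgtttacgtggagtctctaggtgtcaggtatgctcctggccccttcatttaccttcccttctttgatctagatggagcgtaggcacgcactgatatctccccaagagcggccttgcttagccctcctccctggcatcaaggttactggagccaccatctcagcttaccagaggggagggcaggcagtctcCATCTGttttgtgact
Chrna10: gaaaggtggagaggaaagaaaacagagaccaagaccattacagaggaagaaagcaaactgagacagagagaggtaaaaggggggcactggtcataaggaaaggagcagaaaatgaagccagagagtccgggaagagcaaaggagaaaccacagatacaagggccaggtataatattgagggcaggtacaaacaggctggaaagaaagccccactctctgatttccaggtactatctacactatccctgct
The Chrna9 window holds 3 matches to CANNTG, starting 232, 224 and 16 bases before the start, and the Chrna10 window holds 0. Of 33469 windows of the same length over all genes, 65.5% hold at least 1. The letters ATTAAT, part of the recognition sequence of POU4 factors such as Pou4f3, were searched on both strands and are in neither window, against 4.71% of all windows. Such matches describe letters and are not evidence of binding.

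Relative to the hair cell transcripts of the same library, the differences of Chrna9 and Chrna10 between the turns were smaller than in the fit of all genes. The groups overlapped for all 4 genes on the scale used here. Against the outer hair cell list in its place, the groups did not overlap for Chrna9 and Chrna10. Each gene's log2 CPM (with 0.5 CPM added) was set against the mean of 29 hair cell genes in that library. For Chrna9 this gave -0.12, 0.57 and 1.00 in basal replicates 1, 2 and 3 and 1.71, 1.65 and 0.92 in apical replicates 1, 2 and 3. Basal replicate 3, which had the lowest hair cell share (0.244% of counts), lay above apical replicate 3 on this scale. The mean was 0.48 ± 0.57 in basal and 1.42 ± 0.44 in apical libraries (SD, n = 3 each), a difference of -0.94 (two-sided exact permutation p = 0.2, and 0.4 adjusted over 4 genes).

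For Chrna10 the values relative to hair cell genes averaged 2.81 ± 0.30 in basal and 3.43 ± 0.65 in apical libraries, a difference of -0.61 (SD, n = 3 each; exact permutation p = 0.2, and 0.4 adjusted over 4 genes). Kcnn2 averaged -1.60 ± 1.76 in basal and -1.78 ± 0.66 in apical libraries on this scale, and Rapsn -4.98 ± 1.83 in basal and -6.65 ± 2.48 in apical libraries (SD, n = 3 each). Their differences of 0.18 and 1.67 had exact permutation p-values of 0.8 and 0.4. Basal replicate 1 held the largest summed hair cell share of the 6 libraries, 1.57%, close to the 1.55% of apical replicate 2. Such a sum is weighted to abundant genes. Basal replicate 1 also had the lowest Schwann cell share of the basal turn (0.338%). Its Chrna9 level of 112 CPM was below the 228 to 618 CPM of the apical libraries. Its Chrna10 level of 682 CPM was likewise below the apical range of 921 to 2931 CPM. The part of hair cell content in these levels was not tested.

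**Figure D2:**
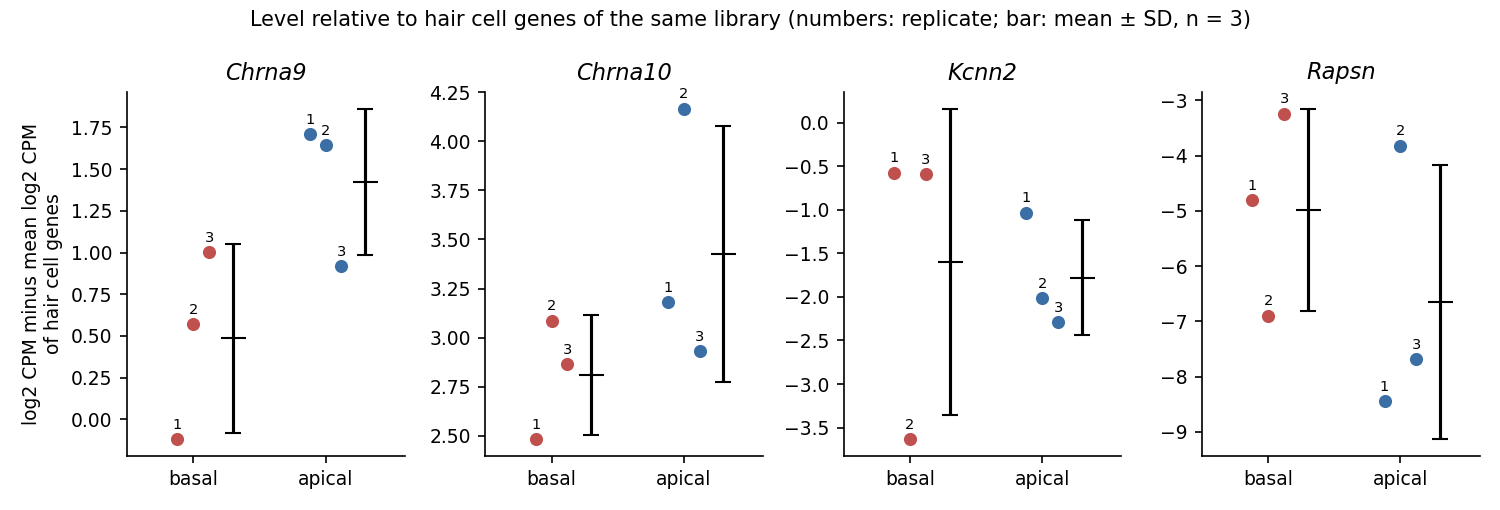
Log2 CPM of each gene minus the mean log2 CPM of 29 hair cell genes of the same library, for basal (red) and apical (blue) libraries, with mean ± SD (n = 3). For Chrna9 basal replicate 3 (1.00) lies above apical replicate 3 (0.92), so the groups that were separate in FPKM overlap on this scale.

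Scaling the whole table by hair cell genes, in place of all genes, also gave smaller differences for Chrna9 and Chrna10 in edgeR's quasi-likelihood test. That scaling moved the median log2 fold change of all genes tested to 1.33, against -0.02 with TMM scaling, so values under it are relative to hair cell genes. The log2 fold change was -1.14 (SE 0.73, adjusted p = 0.646) for Chrna9 and -0.95 (SE 0.70, adjusted p = 0.658) for Chrna10. For Kcnn2 and Rapsn the sign turned, to 0.38 (SE 1.21) and 0.79 (SE 2.61). With basal replicates 2 and 3 left out and TMM scaling kept, the values were -1.81 (SE 0.67, adjusted p = 0.217) for Chrna9 and -1.24 (SE 0.72, adjusted p = 0.405) for Chrna10. That fit was chosen after seeing the data. It has basal replicate 1 alone against the 3 apical libraries and takes their spread for it.

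**Figure D3:**
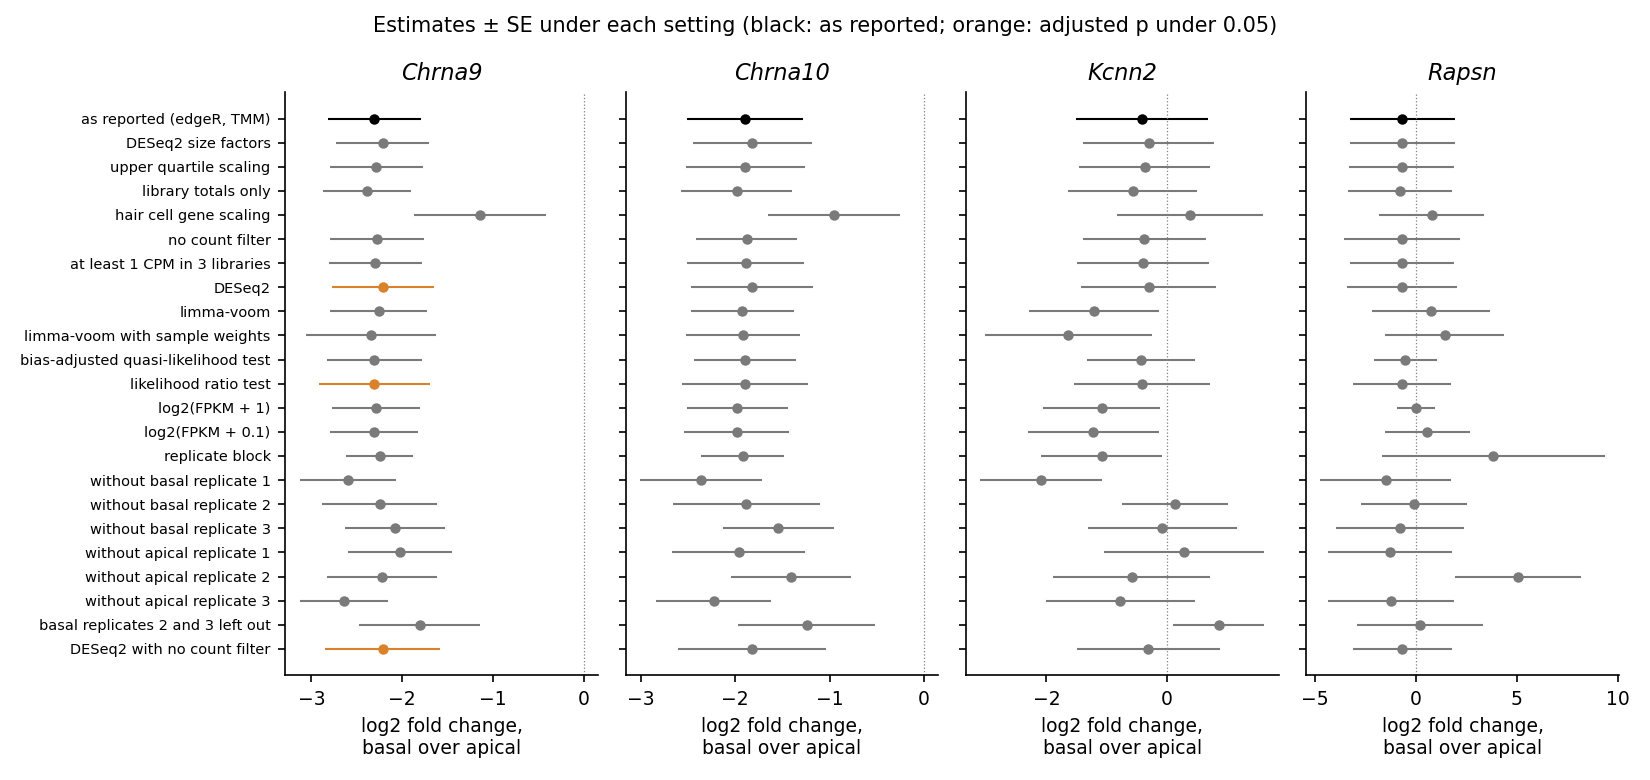
Log2 fold change of basal over apical libraries ± SE for each member under each setting tried, with the reported fit in black and estimates with an adjusted p under 0.05 in orange. Chrna9 stays between -2.64 and -1.14 and Chrna10 between -2.36 and -0.95, while the estimates of Kcnn2 and Rapsn lie on both sides of 0.

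Among 29 hair cell genes tested, whose median log2 fold change was -0.79 and whose range was -2.66 to 0.93, 5 genes had lower values than Chrna9 and 5 lower than Chrna10. Kcnn2 had 21 and Rapsn 17 hair cell genes below it. Of these hair cell genes 24 of 29 had values below 0, against 51.0% of all genes tested, and none passed by edgeR. DESeq2 called 2 of the 29, against 2.69% of all genes tested. These were Otof, a gene of synaptic vesicle release in hair cells (log2 fold change -2.43, DESeq2 adjusted p = 0.0146), and Triobp, a gene of stereocilia rootlets (-1.68, DESeq2 adjusted p = 0.00658). The fold changes are those of the edgeR fit. The place of Chrna9 and Chrna10 near the low end of the hair cell genes is a description of these 6 libraries. The part that RNA of Schwann cells, macrophages, fibrocytes and bone, red blood cells, neurons and supporting cells has in these values was not tested. The part of inner hair cell RNA was not tested either.

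**Figure D4:**
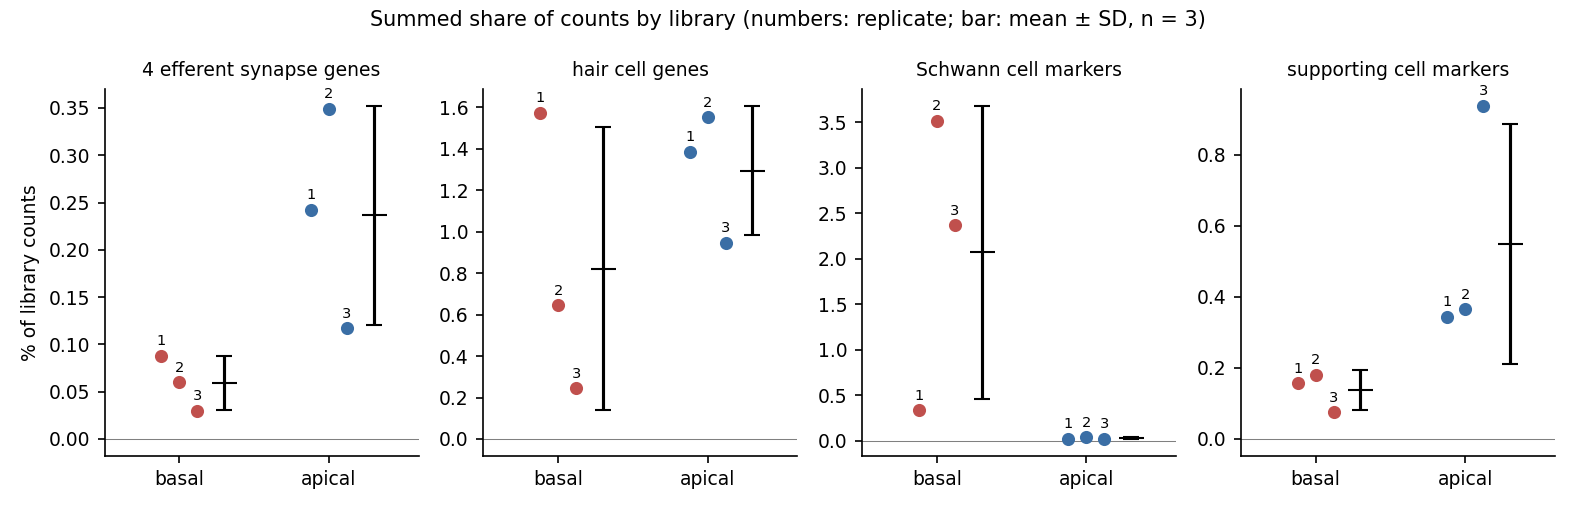
Share of library counts taken by the 4 efferent synapse genes, by hair cell genes, by Schwann cell markers and by supporting cell markers in basal (red) and apical (blue) libraries, with mean ± SD (n = 3). Basal replicate 1 combines a hair cell share of 1.57% with a Schwann cell share of 0.338%, while basal replicates 2 and 3 have less hair cell and more Schwann cell RNA.

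Of 13 matched genes for other nicotinic receptor subunits, 8 had no read in any library (Chrna2, Chrna3, Chrna5, Chrna6, Chrna7, Chrnb3, Chrnb4 and Chrnd), and a count of 0 allows up to 0.182 CPM in the shallowest library. Chrna1, the ligand-binding subunit of the muscle receptor, had 909, 0 and 46 reads in basal replicates 1, 2 and 3 and 1865, 8 and 1065 reads in apical replicates 1, 2 and 3. It averaged 17.2 ± 27.8 CPM in basal and 42.7 ± 40.7 CPM in apical libraries (SD, n = 3 each), and in apical replicate 3 its FPKM was above that of Kcnn2. Its log2 fold change was -1.12 (SE 2.19). Chrnb1, another muscle receptor subunit, had 78, 183 and 57 reads in the basal and 4, 257 and 72 reads in the apical libraries (log2 fold change 0.12, SE 1.86). Neither passed by edgeR (adjusted p = 1.00 for each), and both overlapped between the turns. The neuronal subunits Chrna4 and Chrnb2 were too low to test, with 0, 0 and 108 basal against 99, 0 and 0 apical reads for Chrna4 and 0, 0 and 11 basal against 331, 0 and 0 apical reads for Chrnb2. Skeletal muscle markers were at 0.0030% to 0.0054% of counts in basal and 0.00043% to 0.0011% in apical libraries. Of 11 matched muscle markers 6 were at 0 in all libraries, among them Myod1, Myog and Ckm. Of 3 tested, 2 were at higher and 1 at lower estimates in basal libraries, with a median log2 fold change of 3.52. Myh4, a skeletal muscle myosin gene, had 412, 860 and 740 reads in basal and 63, 80 and 1 reads in apical replicates 1, 2 and 3, without overlap (log2 fold change 3.99, SE 1.56, edgeR adjusted p = 0.715). Groups without overlap and with basal libraries higher were found for 1 of the 3 and for 5.4% of all genes tested. Acta1, the skeletal muscle actin gene, had 140, 0 and 103 basal against 27, 0 and 0 apical reads. Mylpf, also tested, went the other way by estimate, with 0, 0 and 117 basal against 31, 0 and 206 apical reads (log2 fold change -0.79, SE 2.90). Des was too low to test, with 125 reads in apical replicate 1 and 0 in the other libraries. The part of muscle RNA in the subunit values was not tested.

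Genes for receptor assembly and surface transport were detected in some libraries only. Of 9 matched genes 4 were tested, 2 with higher and 2 with lower values in basal libraries and a median log2 fold change of 0.22, against -0.02 over all genes tested, and none passed. Tmie, a protein of the hair cell transduction complex that also affects receptor function, had 1068, 0 and 279 reads in basal and 1375, 1639 and 1032 reads in apical replicates 1, 2 and 3. Its log2 fold change was -1.26 (SE 1.67) with overlapping groups. Lynx1, a membrane protein that modulates nicotinic receptors, had 0, 164 and 624 basal against 0, 0 and 54 apical reads. Tmem35, which encodes the chaperone NACHO, was at 532 reads in basal replicate 3 and 0 in the other libraries, and the neuregulin gene Nrg1 at 220 reads in basal replicate 2 and 16 in apical replicate 3.

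Rapsyn partners and other anchoring genes of the postsynaptic membrane had 13 tested members, 9 higher and 4 lower in basal libraries by estimate, with a median log2 fold change of 0.60, and none passed by edgeR. Utrn, encoding utrophin, which links the cytoskeleton to the membrane at the neuromuscular junction, had 2212, 4995 and 2572 reads in basal and 985, 626 and 1333 reads in apical replicates 1, 2 and 3. The groups did not overlap, and the log2 fold change was 2.07 (SE 0.50; adjusted p = 0.438 by edgeR and 0.00696 by DESeq2). Its highest value stood in basal replicate 2, which also had the largest Schwann cell share (3.52%). Basal replicates 1 and 3 had 2212 and 2572 reads at Schwann cell shares of 0.338% and 2.37%. The part of Schwann cell RNA in the Utrn values was not tested. Macf1, a linker of actin and microtubules, was at 51.4 ± 5.13 CPM in basal and 28.8 ± 9.49 CPM in apical libraries (SD, n = 3 each), also without overlap (log2 fold change 0.90, SE 0.61). Groups without overlap and with basal libraries higher were thus found for 2 of the 13, against 5.4% of all genes tested. DESeq2 called 1 of the 13, against 2.69% of all genes tested. Dag1 (dystroglycan) and Dtnb (dystrobrevin beta) overlapped, with log2 fold changes of 0.99 (SE 0.72) and 0.08 (SE 0.65). The kinase gene Musk and its activator Dok7 were close to absent, with 2 reads each, in apical replicates 2 and 1.

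The other SK and BK channel genes had 4 tested members, 3 higher and 1 lower in basal libraries by estimate (median log2 fold change 1.11), and none passed by edgeR. Efferent inhibition in high-frequency outer hair cells of the rat also involves BK channels, whose pore is encoded by Kcnma1. Kcnma1 had 149, 692 and 2129 reads in basal and 1388, 470 and 671 reads in apical replicates 1, 2 and 3, with overlapping groups (log2 fold change 0.45, SE 0.91). Kcnmb2, an auxiliary BK subunit that confers inactivation, had 775, 724 and 125 reads in basal and 7897, 2643 and 2668 reads in apical libraries. These groups did not overlap, and the log2 fold change of -2.63 (SE 0.83) did not pass (adjusted p = 0.443 by edgeR and 0.0854 by DESeq2). Groups without overlap and with basal libraries lower were found for 1 of the 4 and for 10.4% of all genes tested. Kcnmb4, another auxiliary subunit, had 667, 2 and 398 basal against 125, 39 and 121 apical reads (log2 fold change 2.27, SE 1.81). Lrrc52, a BK-modulating leucine-rich repeat protein, had 73, 150 and 6 basal against 91, 0 and 0 apical reads (1.77, SE 2.66). The other SK genes were scarce. Kcnn1 had 8 reads in apical replicate 1, and Kcnn3 had 140 reads in basal replicate 3 against 9 and 6 reads in apical replicates 1 and 3. Kcnn4, the intermediate-conductance channel, had 63 reads in basal replicate 3 and 79 in apical replicate 1.

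Partners that SK channels need for calcium sensing and its tuning had 9 tested members, 5 higher and 4 lower in basal libraries by estimate (median log2 fold change 0.15), and none passed. Calm2 (calmodulin, the calcium sensor bound to the channel) was at 5371 ± 3918 CPM in basal and 7561 ± 1724 CPM in apical libraries (SD, n = 3 each), with a log2 fold change of -0.37 (SE 0.63). Its reads can be shared with near-identical sequences, so the value for Calm2 is uncertain. Csnk2b, a subunit of the kinase CK2 that lowers the calcium sensitivity of SK channels, had 12692, 9269 and 5984 reads in basal and 19454, 20524 and 24966 reads in apical replicates 1, 2 and 3. These groups did not overlap (log2 fold change -0.88, SE 0.43, edgeR adjusted p = 0.940). Groups without overlap and with basal libraries lower were found for 1 of the 9 and for 10.4% of all genes tested. Ppp2r1a, a subunit of the opposing phosphatase, overlapped (0.15, SE 0.46).

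Genes of the calcium stores next to the synapse had 12 tested members, 7 higher and 5 lower in basal libraries by estimate, with a median log2 fold change of 0.08, and none passed by edgeR. Itpr3, an inositol trisphosphate receptor that releases stored calcium, had 915, 1533 and 935 reads in basal and 136, 51 and 162 reads in apical replicates 1, 2 and 3. Its groups did not overlap (log2 fold change 3.64, SE 0.80; adjusted p = 0.438 by edgeR and 1.22e-05 by DESeq2). Atp2a3, a calcium pump of the store membrane, had 53, 0 and 186 basal against 560, 303 and 580 apical reads, also without overlap (-2.38, SE 1.89). It is also among the listed inner hair cell markers. Of the 12 genes, 1 was without overlap and higher in basal libraries and 1 lower, against 5.4% and 10.4% of all genes tested. DESeq2 called 1 of the 12, against 2.69% of all genes tested. The pump gene Atp2a2 and the store calcium-binding protein gene Calr overlapped, with log2 fold changes of 0.14 (SE 0.40) and -0.83 (SE 0.62).

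Other receptors for efferent transmitters had 7 tested members with a median log2 fold change of 0.69, 5 higher and 2 lower in basal libraries by estimate, and none passed. Ramp1 and Crcp, components of the receptor for the efferent peptide CGRP, had log2 fold changes of 1.73 (SE 0.96) and -0.00 (SE 0.46). Ramp1 was highest in basal replicate 2, with 2299 reads, and the 232 and 639 reads of basal replicates 1 and 3 lay close to the 529, 407 and 235 reads of the apical libraries. The GABA-B receptor genes Gabbr1 and Gabbr2 were at 0 in 2 and 1 of the basal libraries and overlapped between the turns (0.69, SE 2.52, and -1.14, SE 2.11).

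Markers of the efferent neurons themselves had 7 tested members, 3 higher and 4 lower in basal libraries by estimate (median log2 fold change -0.77), and none passed by edgeR. Chat, Slc18a3, Slc32a1 and Th, which make, load or define the transmitters of such neurons, had no read in any library. Calca, which encodes CGRP, was read in every library, with 1254, 1315 and 867 reads in basal and 3668, 3795 and 1317 reads in apical replicates 1, 2 and 3. In CPM its groups overlapped, and its log2 fold change of -1.08 (SE 0.57) did not pass by edgeR (adjusted p = 1.00). Penk, the enkephalin precursor, had 1, 0 and 320 basal against 359, 718 and 1114 apical reads (-2.67, SE 2.17). Bche (butyrylcholinesterase) had 0, 500 and 528 basal against 0, 0 and 73 apical reads (4.16, SE 3.07). Calcb, a second CGRP gene, had 619, 0 and 93 basal against 3, 103 and 53 apical reads (2.44, SE 2.45).

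**Figure D5:**
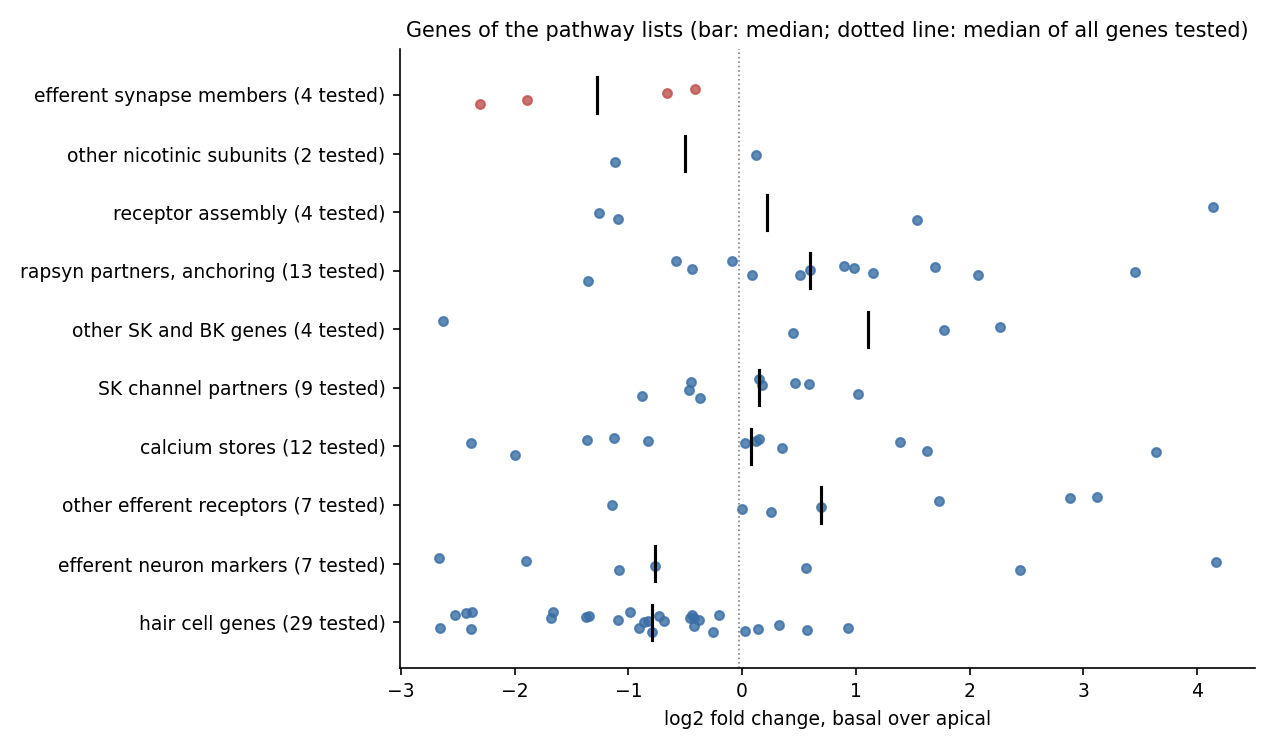
Log2 fold change of basal over apical libraries for each tested gene of the lists around the efferent synapse, with medians as bars and the median of all 13507 genes (-0.02) as a dotted line. The 4 members lie at -2.31, -1.90, -0.66 and -0.41. No gene of any list passed edgeR's quasi-likelihood test, which called 0 of all 13507 genes tested.

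The genes whose pattern over the 6 libraries was most like that of a member were found by Pearson's r of log2 CPM among genes with a mean of at least 10 CPM. For Chrna9 the closest were Vps41 (r = 0.992), Napa (0.988), LOC102549726 (0.986), Rn60_13_0064.1 (0.982) and Serinc2 (0.981). Serinc2 had 980, 1196 and 563 reads in basal and 10225, 7270 and 3822 reads in apical replicates 1, 2 and 3. For Chrna10 they were Arf5 (0.989), Ap3m2 (0.988), Elovl4 (0.986), Dtnbp1 (0.986) and Acot7 (0.984).

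For Kcnn2 the closest patterns were those of Rn50_X_0733.2 (0.993), Siah2 (0.985), Erlec1 (0.984), the unannotated locus Novel01337 (0.981) and Scoc (0.980). For Rapsn they were Cul2 (0.996), Klhdc8b (0.994), Coro1a (0.982), Anks1a (0.981) and Mtmr10 (0.969). Coro1a, an actin regulator, had 1246, 90 and 871 reads in basal and 119, 1247 and 166 reads in apical libraries, a pattern like that of Rapsn. These are the highest of 9024 values of r for each gene, over 6 libraries that share depth and turn, and are given as a description.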

How the data were processed

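RNA of 30 picked outer hair cells per library was extracted with Trizol and made into libraries with the NEBNext Ultra RNA kit, per the labels' protocols. That kit as named does not mark strand, so reads of a gene and an overlapping antisense gene cannot be told apart. Bowtie2 2.2.3 and TopHat2 2.0.12 were used, per the submitters' processing notes. The counting tool, annotation, build and the authors' test are not stated in the sources read here. The deposited table holds raw read counts per gene and library, per the file headers. The authors' FPKM values stand beside them. Among genes above 20 counts, 69.4% to 70.3% had an FPKM equal to count over length and library total, to a relative tolerance of 1e-06. The authors' group means, a normalized signal, were not used, and the deposited log2 fold changes and p-values of the authors are given only where named as theirs.

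Counts were fitted with edgeR 4.0.16 in R 4.3.3 (filterByExpr, TMM, glmQLFit and glmQLFTest with defaults), basal over apical, with Benjamini-Hochberg adjustment over 13507 genes. Standard errors are the log2 fold change over the square root of F. Printed CPM are counts over library totals. Within-library ratios were compared by two-sided exact permutation tests. DESeq2 1.42.0 and limma 3.58.1 were alternatives, as were other scalings and filters, a replicate block and each library left out. Fits were tested on simulated counts. Of 243 listed symbols 231 were found in the table, including 3 under an older name (taken from RefSeq's GRCr8 gene list, used for names). For pathway lists, at most 4 genes are named: passing genes, then those with separate groups by p, then those of highest mean CPM; Musk, Dok7 and the other SK genes were named after their values were seen. A gene that this rule names is not reported here. The members and lists were chosen with earlier results of these data known. Promoter sequences are from RefSeq (GRCr8), which matched 3 of the 4 genes.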

Additional observations from a re-analysis of the deposited data

How the results depend on the processing

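Over 22 alternatives the log2 fold change kept its sign for Chrna9 (-2.64 to -1.14) and Chrna10 (-2.36 to -0.95); Chrna9 passed by DESeq2 (-2.21), by DESeq2 with no count filter (-2.21, adjusted p = 0.0161) and by the likelihood ratio test (-2.31, adjusted p = 0.0188), and Chrna10 in none. Adjusted p over these alternatives was 0.00535 to 0.960 for Chrna9 and 0.118 to 0.991 for Chrna10. With a library left out the values were -2.64 to -2.02 for Chrna9, -2.36 to -1.41 for Chrna10, -2.09 to 0.29 for Kcnn2 and -1.48 to 5.06 for Rapsn. The sign turned with hair cell gene scaling for Kcnn2 (0.38) and Rapsn (0.79), with basal replicates 2 and 3 left out for Kcnn2 (0.86) and Rapsn (0.23), and for Rapsn with limma-voom (0.76), with sample weights (1.44), on log2(FPKM + 1) (0.0335), on log2(FPKM + 0.1) (0.57) and with the replicate block (3.84). The count of genes called, 0 as reported, was 8 with no count filter, 28 by the bias-adjusted test, 327 by the likelihood ratio test, 363 by DESeq2, 663 by DESeq2 with no count filter, 289 with basal replicates 2 and 3 left out, and 0 to 2 with a library left out. Deviations of basal and apical libraries with the same number had r of -0.04, 0.01 and 0.14, against -0.14 to 0.10 for different numbers. The numbers were not taken as pairs. Deviations from a mean of 3 libraries depend on each other, so this check cannot exclude that libraries of the same number shared animals. With the replicate block the count was 0, the values were -2.25 for Chrna9 (adjusted p = 0.942), -1.92 for Chrna10 and -1.08 for Kcnn2, and no member was called.

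Relative to hair cell genes, differences kept their sign over 12 alternatives for Chrna9 (-1.60 to -0.64), Chrna10 (-1.27 to -0.24) and Rapsn (0.77 to 3.08). Chrna9 and Chrna10 were at -1.60 and -1.27 with the outer hair cell list and at -1.30 and -0.97 with the median of logs. With 2 CPM added they were at -1.06 and -0.75. In each of these settings both had an exact permutation p of 0.1, the smallest possible, so the groups did not overlap. For Kcnn2 the sign turned with the median of logs (-0.18) and the outer hair cell list (-0.47), and was -0.33 to 1.20 with a library left out. Chrna9 over Chrna10 was -0.60 to -0.06 over 10 alternatives. With the numbers as a block the smallest possible p of these comparisons is 0.25. The cause of these changes was not tested. Rapsn had 0 to 206 reads per library, and counting limits cover counting error only.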

Other observations

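The deposited table annotates 31 genes to cholinergic synaptic transmission, among them Chrna9, Chrna10 and Rapsn but not Kcnn2. Of these 12 had no read in any library and 9 were tested, 4 with higher and 5 with lower values in basal libraries and a median log2 fold change of -0.66, and none passed edgeR's quasi-likelihood test. Lama2, a laminin chain of basement membranes, had 433, 2062 and 3390 reads in basal and 413, 372 and 43 reads in apical replicates 1, 2 and 3 (log2 fold change 2.99, SE 1.05, edgeR adjusted p = 0.553), without overlap. The part of RNA from other cell types in this difference was not tested. Of the 9 tested genes, 1 was without overlap and higher in basal libraries and 2 were lower, against 5.4% and 10.4% of all genes tested. The serotonin receptor gene Htr3a was read in basal replicates 2 and 3 alone, with 185 and 82 reads, and Adora2a, an adenosine receptor gene, in apical replicates 1 and 3 alone, with 11 and 68 reads. These genes were picked after their values were seen.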
